A study of Mus musculus with 6 samples.

Results

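Napsa, Scgb1c1, Dcpp1, Dcpp2, Dcpp3, Reg3g and Reg3b are secretory genes, better known from glands and mucosal linings than from fibroblasts, whose counts were high in libraries of gastric cancer-associated fibroblasts. They were taken by symbol from the deposited table of raw counts, in which all 7 were found among 14228 genes. Because they were picked for their level in the cancer libraries, their difference between the groups is described below and not tested. The question put to the data was whether their counts followed epithelial or fibroblast genes from library to library.

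The libraries held RNA of live stomach cells, sorted by podoplanin once cells with CD31 (endothelial), CD45 (immune) or EpCAM (epithelial) on their surface had been gated out. All mice, controls included, were 8 weeks old and carried the triple-transgenic iLgr5;GLI2A alleles, a model of gastric cancer. In the CAF group (3 libraries, from 1, 2 and 2 mice) cancer was induced by tamoxifen in corn oil, gavaged for 5 days, and then doxycycline chow for 3 weeks, with doxycycline and sucrose given as well in the water during the opening 3 days. The normal group (3 libraries, from 1, 1 and 2 mice) received corn oil and neither drug, so what the drugs did and what the cancer did cannot be told apart. Each library was thus made from mice of its own, single or pooled. RNA was read by MARS-seq, which counts the 3′ ends of polyadenylated transcripts.

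Total counts ranged from 644522 (CAF library 1) to 6422568 in CAF and from 768420 to 3259644 in normal libraries. A gene with 3 counts thus stood at 4.39 CPM in CAF library 1 and at 0.414 CPM in CAF library 2 (CPM, the usual normalised read count, here on library totals scaled by trimmed mean of M-values). Of the markers used in the sort, Pdpn was at 27.8, 121 and 119 CPM in CAF libraries 1 to 3 and at 5.71, 34.2 and 18.8 CPM in normal libraries 1 to 3. Epcam, the surface protein used to remove epithelial cells, was still at 233, 127 and 114 CPM in CAF and at 150, 78.5 and 13.8 CPM in normal libraries. Ptprc, which encodes CD45, did not exceed 5.52 CPM and Pecam1, which encodes CD31, did not exceed 9.39 CPM. The fibroblast collagen Col1a2 was present throughout, at 1441 CPM or more. Normal libraries 1 and 2 stood apart in gland RNA: chief cell genes took 14.4% and 10.8% of their counts, against 1.3% in normal library 3 and 0.409%, 0.191% and 0.127% in CAF libraries 1 to 3. The normal levels given below, and the epithelial share, therefore come from libraries of unequal gland content. Against normal library 3 alone, Napsa had a log2 fold change of 7.48, and Scgb1c1, Dcpp1, Dcpp2, Dcpp3 and Reg3g had no normal count. In such bulk samples, fewer cells of a type and less RNA per cell cannot be told apart.

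Napsa encodes napsin A, an aspartic protease known from alveolar type 2 cells of the lung and from kidney tubules. Scgb1c1 belongs to the secretoglobins, small secreted proteins of mucosal surfaces and their glands. Dcpp1, Dcpp2 and Dcpp3 are neighbouring copies that encode demilune cell and parotid proteins, found in mouse saliva. Reg3g and Reg3b encode secreted C-type lectins of the gut, which bind bacteria, and their transcription is known to respond to IL-22 through STAT3; Reg3b is also known from the injured pancreas.

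The promoters of the Dcpp copies are shown because these genes are near-identical and were high in the same libraries, and that of Scgb1c1 because its counts were close to theirs in pattern. Each is the 150 bases before a transcription start in RefSeq's table for GRCm38.p6, plus strand, 5′ to 3′, with the core of a TATA box (TATAA) in capitals: chr17:23880726-23880875 for Dcpp1, chr17:23898572-23898721 for Dcpp2, chr17:23917308-23917457 for Dcpp3 and chr7:140845415-140845564 for Scgb1c1. RefSeq's gene records of Dcpp1 and Dcpp3 begin earlier, at 23880669 and 23917419. The Dcpp1 window thus lies inside its gene record and the Dcpp3 window partly so, and other starts were not searched.
Dcpp1: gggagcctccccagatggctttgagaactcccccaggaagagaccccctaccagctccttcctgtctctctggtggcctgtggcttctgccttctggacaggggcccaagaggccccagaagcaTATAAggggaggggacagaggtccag
Dcpp2: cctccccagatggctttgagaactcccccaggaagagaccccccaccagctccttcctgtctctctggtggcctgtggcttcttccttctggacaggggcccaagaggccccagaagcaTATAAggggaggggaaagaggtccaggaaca
Dcpp3: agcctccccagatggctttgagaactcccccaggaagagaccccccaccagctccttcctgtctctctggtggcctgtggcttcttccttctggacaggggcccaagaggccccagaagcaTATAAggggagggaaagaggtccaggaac
Scgb1c1: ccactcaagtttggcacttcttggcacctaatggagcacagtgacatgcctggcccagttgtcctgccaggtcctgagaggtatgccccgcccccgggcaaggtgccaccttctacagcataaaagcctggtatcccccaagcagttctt

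Over 250 bases before the start, the promoters of Dcpp1 and Dcpp2 were 93.3% identical, those of Dcpp1 and Dcpp3 94.9% and those of Dcpp2 and Dcpp3 96.4%. The Scgb1c1 promoter was 49.1% to 50.0% identical to them, whereas those of Reg3g and Reg3b were 68.9% identical to each other. TATAA, searched on both strands, began at -26 in Dcpp1, at -31 in Dcpp2 and at -29 in Dcpp3 and did not occur in the Scgb1c1 window. These letters occur in 22.8% of 32851 promoters of this length. The STAT-type motif TTCNNNGAA (7.02% of promoters) occurred in Reg3b, at -129, and in none of the other 5 windows. The forkhead-type motif TGTTTAC (3.17% of promoters) occurred in none of the 6. A match of letters is a description and not a binding site; 6 of the 7 genes had an entry in the promoter table, Napsa being the exception.

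Napsa had 419, 2790 and 2362 counts in CAF libraries 1, 2 and 3 and 4, 1 and 2 counts in normal libraries 1, 2 and 3. On the scaled level these were 613, 385 and 319 CPM against 1.63, 1.27 and 2.50 CPM. Every CAF library was thus far above every normal library, and within the CAF group the level was highest in library 1. The CAF mean was 439 ± 154 CPM and the normal mean 1.80 ± 0.634 CPM (SD, n = 3 libraries in each group), a log2 fold change of 7.93 with a standard error of 0.52. The gene lies on chromosome 7 (44572380 to 44586862, GENCODE M21 on GRCm38), where the antisense gene Gm15396 overlaps it. The neighbouring gene Nr1h2, a nuclear receptor for oxysterols, had no call: its log2 fold change was -0.09 (edgeR, adjusted p = 0.938).

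Scgb1c1 was at 143, 127 and 184 CPM in CAF libraries 1 to 3 and at 1.22, 3.80 and 0 CPM in normal libraries 1 to 3. The groups did not overlap, and normal library 3 had no count. The means were 151 ± 29.5 and 1.67 ± 1.94 CPM (SD, n = 3 each), a log2 fold change of 6.58, or 7.37 without normal library 2. Scgb1c1 lies on chromosome 7 (140845547 to 140846769), overlapped on the other strand by C330022C24Rik and Gm45785. The sources used here do not say whether strand was used in counting, so reads of overlapping genes on opposite strands may not be told apart. The nearest protein-coding genes with values on either side, Urah and Bet1l, had log2 fold changes of 1.00 (adjusted p = 0.67 by edgeR) and 0.74 (adjusted p = 0.288).

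The Dcpp genes lie side by side on chromosome 17. Dcpp1 was at 64.4, 109 and 159 CPM in CAF libraries 1 to 3; the normal libraries held 2 counts in all, both in library 2. The pooled CAF level was 265 times the pooled normal level, with a 95% counting interval of 73.2 to 2188. Dcpp2 was at 366, 353 and 492 CPM in CAF and at 0.816, 24.1 and 0 CPM in normal libraries 1 to 3. Dcpp3 was at 490, 547 and 824 CPM in CAF and at 3.67, 13.9 and 0 CPM in normal libraries. On chromosome 17 Dcpp3 spans 23917458 to 23919441, overlapped on the other strand by a long noncoding RNA gene. All 3 copies were highest in CAF library 3, had no count in normal library 3, and among normal libraries were highest in library 2. The means of Dcpp2 were 404 ± 76.8 and 8.29 ± 13.7 CPM, and those of Dcpp3 were 621 ± 179 and 5.87 ± 7.22 CPM (SD, n = 3 each). The log2 fold change of Dcpp2 was 5.79, or 9.33 without normal library 2 and 5.03 without normal library 1. That of Dcpp3 was 6.80, or 7.97 without normal library 2. The 19 counts of Dcpp2 and 11 of Dcpp3 in normal library 2 thus set much of the normal level of these copies. The nearest protein-coding genes with values on either side of the Dcpp cluster were the serine protease genes Prss32 and Prss30. Neither exceeded 4.08 CPM in any library.

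The copies are hard to count apart. Their transcripts were 90.0% (Dcpp1 and Dcpp2), 93.4% (Dcpp1 and Dcpp3) and 91.8% (Dcpp2 and Dcpp3) identical, with unbroken shared runs of up to 168 bases. The last 100 bases of the Dcpp1 and Dcpp3 transcripts were the same, and those of Dcpp2 occurred unchanged in both other copies. In GENCODE M21 the Dcpp2 gene (23880880 to 23900788) also covers nearly all of Dcpp1 (23880876 to 23882853). How many reads near the 3′ end the authors' counting gave to each copy is therefore uncertain. By the deposited counts, Dcpp1, Dcpp2 and Dcpp3 took 6.99%, 39.7% and 53.3% of their 629 summed counts in CAF library 1. The split was 10.8%, 35.0% and 54.2% of 7314 counts in CAF library 2 and 10.8%, 33.4% and 55.9% of 10911 in CAF library 3. Dcpp3 thus took over 0.5 of the counts in each CAF library, while the share of Dcpp1 was lower in library 1 (95% interval 5.13% to 9.28%) than in libraries 2 (10.1% to 11.5%) and 3 (10.2% to 11.4%), and that of Dcpp2 was higher in library 1 (35.9% to 43.7%) than in library 3 (32.5% to 34.2%). In normal library 2, which held 32 such counts, Dcpp2 took 59.4% with an exact binomial 95% interval of 40.6% to 76.3%.

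**Figure D1:**
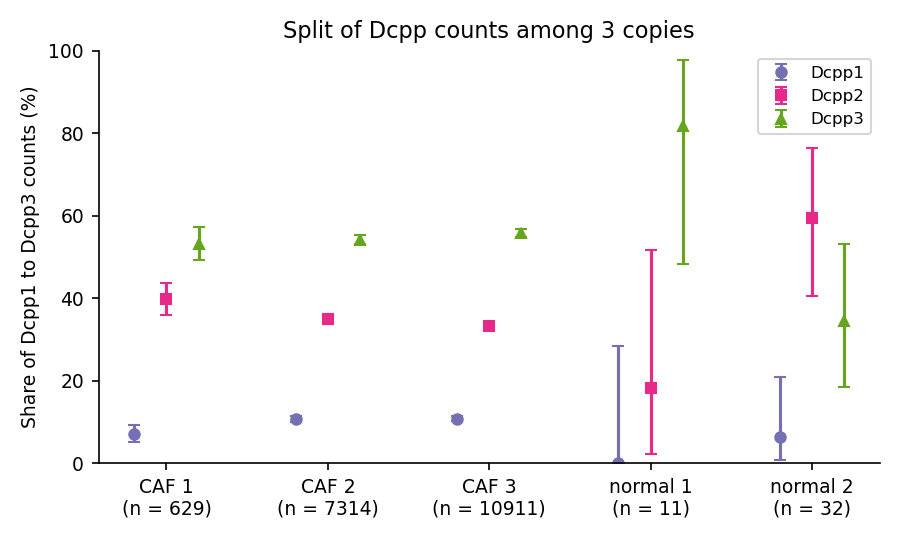
Share of the summed Dcpp1, Dcpp2 and Dcpp3 counts (percent) taken by each copy in each library with any such count, with n the summed counts; bars are exact 95% binomial intervals and cover counting error only. Dcpp3 took 53.3% to 55.9% in the 3 CAF libraries, and the wide bars of the normal libraries rest on 11 and 32 counts.

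Reg3g was at 58.5, 51.3 and 108 CPM in CAF libraries 1 to 3 and at 3.67, 5.07 and 0 CPM in normal libraries 1 to 3. The groups did not overlap; the means were 72.6 ± 30.9 and 2.91 ± 2.62 CPM (SD, n = 3 each) and the log2 fold change 4.55. Reg3b departed from the description of these genes as high in CAF: it had 0, 12 and 98 counts in CAF libraries 1 to 3 against 0, 1 and 1 in the normal group. Its groups overlapped, and 98 of its 112 counts came from CAF library 3. The pooled CAF level was 14.5 times the normal level (95% counting interval 3.92 to 121), and the level in CAF library 3 was 8.00 times that in CAF library 2 (4.38 to 16.0). With 3 counts worth 4.39 CPM in CAF library 1, its absence there is not a difference that the depth can show against the 1.66 CPM of CAF library 2. Both lie in the Reg cluster on chromosome 6 (Reg3g 78466269 to 78468872, Reg3b 78370657 to 78373466), and their transcripts were 69.3% identical.

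**Figure D2:**
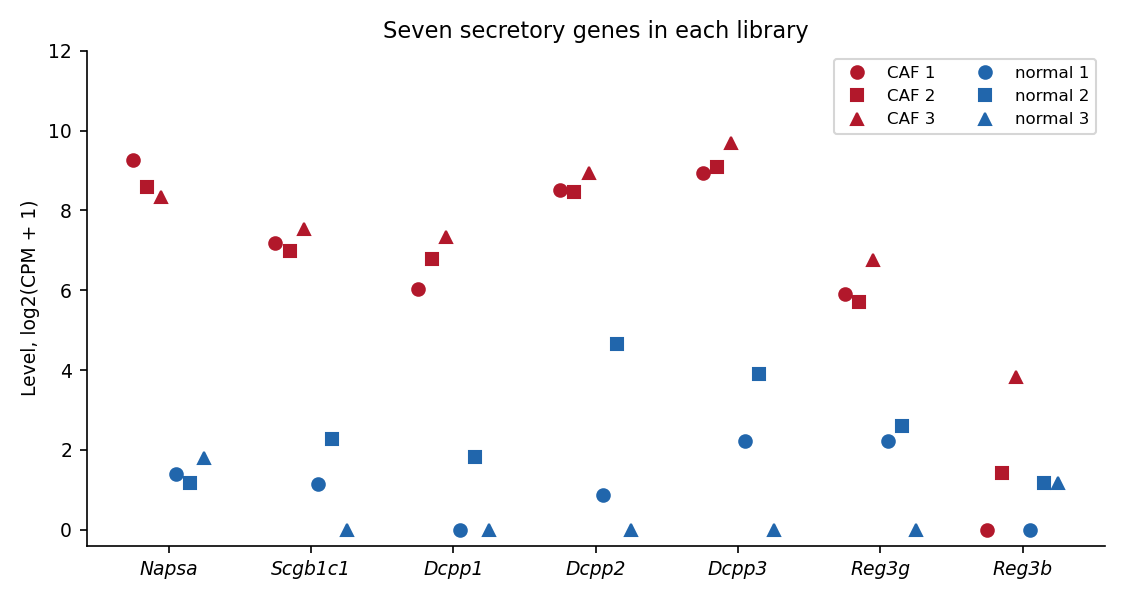
Level of each of the 7 genes in each library, as log2(CPM + 1); red marks are CAF and blue marks normal libraries, and the shape gives the library number. The red and blue marks are apart for 6 genes and mixed for Reg3b, and 5 genes have no count in normal library 3.

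In the model fitted to all genes, 1.1% of 10148 genes were called by edgeR's quasi-likelihood test (adjusted p under 0.05), 0.897% higher and 0.207% lower in CAF. A further measure, every CAF library above every normal library, was met by 10.6% of the genes, and the reverse by 9.35%. Of the 6 secretory genes with enough counts to enter the fit, 5 were called higher (not Dcpp2), and 6 had all CAF libraries above all normal libraries. Since the genes were chosen from this contrast, nothing is read from these counts. The 7 genes together took 0.184%, 0.178% and 0.242% of all counts in CAF libraries 1 to 3. Their part of the normal libraries was 0.000828%, 0.00454% and 0.00039%.

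Other members of the same families did not all share this pattern. Of 16 other secretoglobins, 2 had values. Scgb3a1, a secretoglobin of airway secretory cells, was at 108, 68.0 and 86.2 CPM in CAF and at 15.5, 1.27 and 0 CPM in normal libraries 1 to 3. Its groups did not overlap, but it missed the threshold (log2 fold change 3.63, edgeR adjusted p = 0.0998). Without normal library 1 the fold change was 10.4 times as large (adjusted p = 0.141), and without normal library 3 it was 3.06 (adjusted p = 0.0461). Scgb1a1, the main product of airway club cells, had its highest values in the normal group, which overlapped with CAF, with 1.46, 0.414 and 0.676 CPM in CAF and 61.6, 5.07 and 0 CPM in normal libraries, and had too few counts to be tested. Of 5 other Reg genes, 3 had values and none entered the fit. Reg1 was at 1.46, 10.4 and 11.2 CPM in CAF and at 2.04, 1.27 and 0 CPM in normal libraries, while Reg2 and Reg3a, the latter lying between Reg3b and Reg3g, did not exceed 3.79 CPM.

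Among aspartic proteases, the family of Napsa, 0 of 5 tested genes passed in either direction (median log2 fold change -2.81, against 0.06 over all genes tested). At an unadjusted p under 0.05 edgeR gave 1 higher and 3 lower, and DESeq2 called 0 higher and 3 lower after adjustment. Pgc, the pepsinogen C of chief cells, differed by -5.45 on the log2 scale (edgeR, adjusted p = 0.0666), by -4.75 without normal library 1 (0.223) and by -6.05 without normal library 3 (0.0073). Ctsd, a lysosomal protease, was at 1207, 621 and 541 CPM in CAF and at 895, 808 and 937 CPM in normal libraries. Of the 5, the gene with a positive log2 fold change was Bace1, a membrane-bound secretase (1.01, adjusted p = 0.251; 0.0437 without normal library 3).

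Markers of the organs in which these genes are best known gave few calls. Of 12 alveolar type 2 genes, 8 had values, 4 were tested and 0 passed in either direction with edgeR or DESeq2 (1 lower at an unadjusted p under 0.05 with edgeR). Sftpc, the surfactant protein that defines alveolar type 2 cells, had no count in any CAF library and stood at 0.408, 0 and 40.0 CPM in normal libraries 1 to 3. Of 20 salivary and lacrimal genes, 9 had values, 6 were tested and 0 passed with edgeR (median log2 fold change -1.50; 2 lower at an unadjusted p under 0.05, and 1 lower with DESeq2). In the airway club and goblet list, 2 of 11 tested genes rose and 0 fell with edgeR (median -2.32; 4 higher and 6 lower unadjusted, and 3 higher and 5 lower with DESeq2). The risers were Hp, the haemoglobin-binding protein haptoglobin (1097, 1339 and 475 CPM in CAF; log2 fold change 6.17, adjusted p = 0.0124), and the claudin Cldn10 (adjusted p = 0.0417). Foxe1, a forkhead factor of the thyroid and foregut, was at 484, 279 and 206 CPM in CAF and at 3.67, 2.53 and 1.25 CPM in normal libraries (adjusted p = 0.0102). It was the called gene among 11 tested foregut transcription factors, whose median was -2.12. None of the calls on Hp, Cldn10 and Foxe1 held without normal library 1 (adjusted p = 0.141, 0.258 and 0.136) or without normal library 2 (0.0537, 0.133 and 0.0537). Those on Hp and Cldn10 also ended without CAF library 2 (0.0561 and 0.176), and that on Cldn10 without CAF library 3 (0.141).

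Mucosal defence genes, not all of them specific to epithelium (S100a8, S100a9, Camp and Lyz2 among them), were tested as a list of 25, of which 11 entered the fit. With edgeR 1 rose and 0 fell, with a median log2 fold change of 1.74 (4 higher and 1 lower unadjusted, and 4 higher and 0 lower with DESeq2). The riser was Saa3, an acute-phase protein, at 1157, 917 and 254 CPM in CAF and 8.16, 5.07 and 36.3 CPM in normal libraries (adjusted p = 0.042 by edgeR). Leaving out any library but normal library 3 ended that call (adjusted p = 0.0638 to 0.224). Wfdc2, a secreted protease inhibitor, was at 1538, 1132 and 1199 CPM in CAF and at 203, 115 and 26.3 CPM in normal libraries, and Lcn2, which binds bacterial iron carriers, was at 170, 315 and 94.1 CPM against 5.3, 24.1 and 23.8 CPM. Neither overlapped between groups, and both missed the threshold (adjusted p = 0.0638 for each; 0.00918 and 0.0382 without normal library 3). The log2 fold change of Wfdc2, 3.48, was 4.15 without normal library 1 (0.181). For Pigr, the epithelial carrier of immunoglobulin A, the log2 fold change was -3.02 (adjusted p = 0.263). It was -3.62 without normal library 3 (0.0136), -3.71 without CAF library 2 (0.48), -2.19 without normal library 2 (0.402) and 2.23, the other direction, against normal library 3 alone (0.499).

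Of 19 tested genes of IL-22, IL-17, IL-6 and STAT3 signalling, 1 rose and 0 fell with edgeR (median 0.46; 5 higher and 1 lower unadjusted, and 1 in each direction with DESeq2). The riser was the interleukin-6-type cytokine Il11, at 626, 861 and 197 CPM in CAF and 9.39, 10.1 and 16.3 CPM in normal libraries (adjusted p = 0.0201). Its call ended without CAF library 2 (0.0762), normal library 1 (0.155) or normal library 2 (0.0995). The log2 fold change of Stat3 was 0.91 (adjusted p = 0.28), and that of Socs3, a feedback inhibitor induced by STAT3, was -0.61 (adjusted p = 0.605). Il22ra1, the epithelial IL-22 receptor chain, did not exceed 1.63 CPM.

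The epithelial genes themselves split. In a list of 25 genes found in most epithelia, from Epcam and Cdh1 to keratins and claudins, 24 were tested, 2 rose and 0 fell with edgeR, with a median log2 fold change of -0.65 (5 higher and 4 lower unadjusted, and 4 higher and 3 lower with DESeq2). Cldn3 was at 116, 74.9 and 74.5 CPM in CAF and at 5.71, 2.53 and 3.75 CPM in normal libraries, and Cldn6 was at 79.0, 62.0 and 38.3 CPM against 0.408, 0 and 1.25 CPM (adjusted p = 0.0124 for each, edgeR). Both calls ended without CAF library 2 (0.0674 and 0.0762), normal library 1 (0.141 and 0.146) or normal library 2 (0.0565 for each). The tight-junction genes Cldn4 and Cldn7 and the keratin Krt7 were also higher in every CAF library than in every normal library, without passing (adjusted p = 0.266, 0.0841 and 0.0998). In all, 5 of the 24 genes had every CAF library above every normal library and 1 had the reverse, against 10.6% and 9.35% of all genes tested. Cldn7 and Krt7 passed without normal library 3 (0.0237 and 0.0303) and when mouse number entered the model (0.0378 and 0.035). Krt19, another keratin, was lower in every CAF library (155, 155 and 151 CPM) than in every normal library (986, 434 and 464 CPM), again without passing (adjusted p = 0.0647, or 0.0168 without normal library 3). Of the 24 genes, 7 had a positive and 17 a negative log2 fold change. Those of Cdh1, Krt8 and Krt18 were -1.10, -1.03 and -0.15 (edgeR adjusted p = 0.52, 0.53 and 0.963), and 1.39, 0.17 and 2.73 against normal library 3 alone. Cdh1 passed without normal library 3 (-1.67, adjusted p = 0.0192). Pit and neck cell genes took the other direction throughout, with 2 of 12 lower by edgeR (Psca and Mucl3, adjusted p = 0.0347 and 0.0216), 0 higher and a median of -3.32. At an unadjusted p under 0.05 edgeR gave 11 lower, and DESeq2 called 11 lower after adjustment. Both edgeR calls ended when any library but normal library 3 was left out (0.0565 to 0.155). The chief, parietal and enteroendocrine cell lists gave 0 calls with edgeR and 4 lower genes each with DESeq2, of 4, 5 and 5 tested (medians -6.16, -5.06 and -4.82). The 20 fibroblast identity genes gave 0 calls in either direction with edgeR (median 0.86, with 6 higher and 0 lower unadjusted, and 2 higher with DESeq2). Of 17 fibroblast activation genes 8 rose and 0 fell (median 4.61, and 13 higher with DESeq2). The activation list was drawn up with earlier results of these data known, so its calls are a description.

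Between the groups, the general epithelial and fibroblast identity totals overlapped, whereas 6 of the 7 secretory genes, chosen for their CAF levels, did not. The general epithelial list took 0.513%, 0.245% and 0.24% of counts in CAF libraries 1 to 3, against 0.522%, 0.326% and 0.134% in the normal group. Fibroblast identity genes took 2.14%, 5.01% and 5.91% in CAF and 0.875%, 1.54% and 3.67% in normal libraries. The fibroblast activation list, in contrast, separated the groups as the 7 genes did, at 0.984%, 1.06% and 0.634% in CAF and 0.082%, 0.082% and 0.151% in normal libraries. That list was itself drawn up with earlier results of these data known, so nothing is read from its separation. CAF library 1 and normal library 1 had nearly the same epithelial share, with overlapping exact binomial 95% intervals of 0.496% to 0.531% and 0.514% to 0.53%. Per 1000 counts of the epithelial list Napsa had 127 counts in CAF library 1 and 0.235 in normal library 1. Since the genes were chosen for high CAF levels, such differences between the groups are a description and say nothing of which cells held the RNA.

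**Figure D3:**
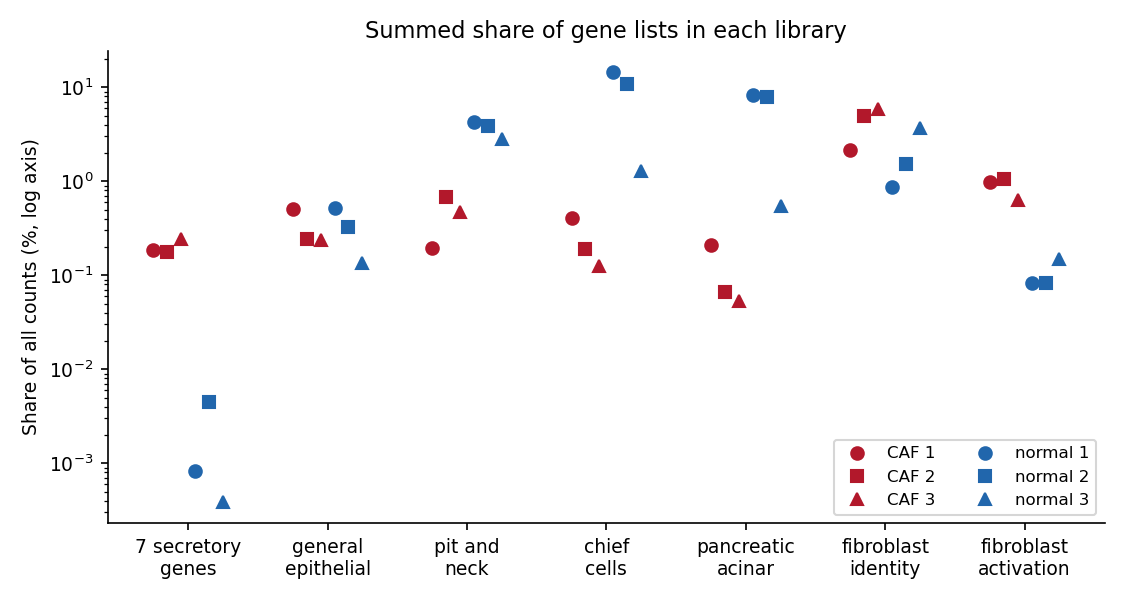
Share of all counts (percent, log axis) taken by the summed genes of each list in each library; red marks are CAF and blue marks normal libraries, and the shape gives the library number. The 7 secretory genes are at 0.178% to 0.242% in CAF and at most 0.00454% in normal libraries, whereas the general epithelial and fibroblast identity marks of the groups overlap; the pancreatic acinar sum is mostly Clps.

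Within the CAF group, where each library held these RNAs, the genes did not move as a unit. The epithelial share was highest in CAF library 1, while its values in libraries 2 and 3 lay within counting error of each other (0.241% to 0.249% and 0.236% to 0.243%). The fibroblast share was lowest in library 1 and highest in library 3. Napsa had the epithelial order, and its level in CAF libraries 2 and 3 together was 0.574 times that in library 1 (95% counting interval 0.52 to 0.636). Per 1000 epithelial counts Napsa was at 127, 177 and 153, a coefficient of variation of 16.6%. Per 1000 fibroblast counts it was at 30.4, 8.68 and 6.22, a coefficient of 88.2%, against 30.5% for its share of all counts. By this measure, over 3 libraries, Napsa was steadiest relative to epithelial genes, though its ratio to them still varied 1.40-fold.

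By the deposited counts, whose split among the Dcpp copies is uncertain, Dcpp1 (44 counts in CAF library 1) did the reverse. The differing orders of the Dcpp copies given here carry the same uncertainty. The level of Dcpp1 in CAF libraries 2 and 3 together was 2.09 times that in library 1 (1.55 to 2.88), the fibroblast order. Per 1000 fibroblast counts it was at 3.20, 2.45 and 3.10, a coefficient of variation of 14.0%, against 68.1% per epithelial count and 46.2% of all counts. Dcpp3 also had the fibroblast order (1.40 times, 1.26 to 1.57), but its coefficient of variation was 32.4% for the share of all counts, 34.9% per fibroblast count and 59.0% per epithelial count. Scgb1c1, Dcpp2 and Reg3g were highest in CAF library 3 and, on scaled CPM, lowest in library 2, which is neither order. Scgb1c1 and Dcpp2 varied least as a share of all counts (22.2% for each, against 46.0% to 50.9% on either list), and the values of Reg3g were 45.7% of all counts, 42.6% per fibroblast count and 70.1% per epithelial count. The places of libraries 1 and 2 were within counting error for all 3. On unscaled totals they held 152 and 143 CPM of Scgb1c1 (123 to 185 and 134 to 152) and 62.1 and 57.9 CPM of Reg3g (44.3 to 84.5 and 52.2 to 64.1). For Dcpp2 they changed places there (388 and 399 CPM, with overlapping intervals of 341 to 439 and 383 to 414). The ratio of CAF libraries 2 and 3 together to library 1 was 1.08 (0.886 to 1.34) for Scgb1c1, 1.16 (1.02 to 1.32) for Dcpp2 and 1.37 (0.998 to 1.92) for Reg3g.

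**Figure D4:**
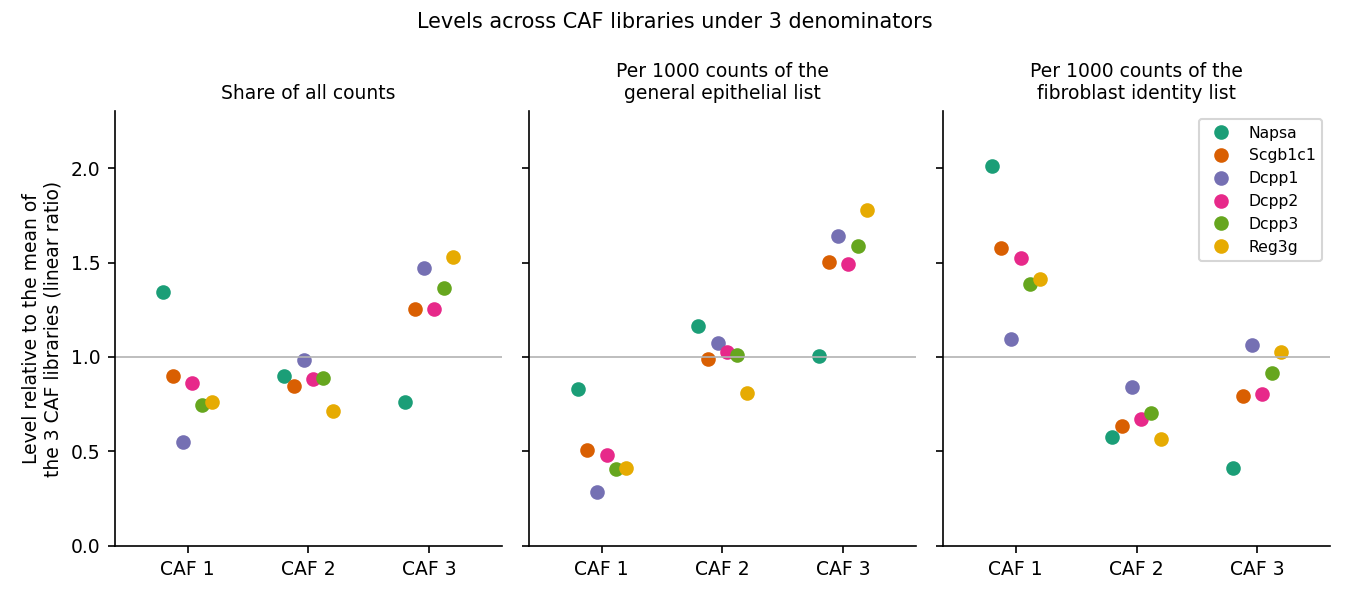
Level of 6 genes in each CAF library divided by the gene's mean over the 3 CAF libraries (linear ratio), as a share of all counts (left), per 1000 counts of the general epithelial list (middle) and per 1000 counts of the fibroblast identity list (right); Reg3b, with no count in CAF library 1, is left out. Napsa lies closest to 1 in the middle panel (coefficient of variation 16.6%) and Dcpp1 in the right panel (14.0%). The split of counts among the Dcpp copies is uncertain, and Dcpp2 and Dcpp3 varied least in the left panel.

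These orders rest on 3 libraries and are common in the table. Of 9524 genes with enough counts, 26.3% had the order of Napsa (library 1 above 2 above 3), 28.1% that of Dcpp1 and Dcpp3 (3 above 2 above 1) and 6.02% that of Scgb1c1, Dcpp2 and Reg3g (3 above 1 above 2). Among epithelial genes 13 of 23 had the order of Napsa and 6 the reverse, and among fibroblast identity genes 15 of 20 had the order of Dcpp1 and 3 that of Napsa. Other lists of the same cell types did not divide this way: of 17 fibroblast activation genes 6 had the order of Napsa and 3 that of Dcpp1, and of 12 gastric pit and neck genes 1 and 3. The orders therefore do not sort fibroblast from epithelial genes in general. CAF library 1 was also the shallowest library and the CAF library made from 1 mouse, and the part of depth or of pooling in these orders was not tested. No correlation is given, because the 6 libraries fall into 2 separate groups.

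Most pancreatic acinar genes had the library order of Reg3b within the CAF group, as had most fibroblast identity genes. Of 11 acinar genes in the table, 6 had no count in CAF library 1, as had Reg3b, and 8 had their level in the order library 3 above 2 above 1. That order was held by 15 of 20 fibroblast identity genes and by 28.1% of 9524 genes with enough counts. In CAF library 2, Cel, Cpa1 and Pnlip were at 2.90, 4.69 and 4.69 CPM. Their absence from CAF library 1, where 3 counts stand at 4.39 CPM, is thus near the limit of its depth. The examples were chosen after their values were seen. Cela2a, a pancreatic elastase, had 0, 166 and 423 counts in CAF libraries 1 to 3 against 10, 2 and 1 in the normal group. Prss2, a trypsinogen, had 0, 96 and 169 counts in CAF and 5, 0 and 2 in normal libraries. Clps, pancreatic colipase, had the reverse order in CAF and was higher in normal libraries, at 1958, 466 and 184 CPM in CAF and at 108183, 90075 and 5110 CPM in normal libraries. Cela1, Try4, Pnliprp1 and Cel were likewise highest in normal libraries 1 and 2. Cela1 was at 23.4, 20.0 and 62.4 CPM in CAF and at 391, 419 and 15.0 CPM in normal libraries. Of the 6 acinar genes tested, 1 had a positive and 5 a negative log2 fold change (median -3.14). None of them passed in either direction with edgeR (0 higher and 4 lower unadjusted, and 4 lower with DESeq2). The part of pancreatic RNA in the Reg3b counts was not tested.

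The genes nearest in pattern over all 6 libraries were found by the root mean square difference between log2 CPM profiles, each centred on its mean. For Napsa they were Rgs8, a regulator of G-protein signalling (0.26), Epha8, an ephrin receptor (0.63), and Foxe1 (0.66). Rgs8 was at 135, 78.4 and 68.4 CPM in CAF libraries 1 to 3 and Epha8 at 121, 42.6 and 31.4 CPM, and neither had a count in a normal library. Against 3 counts over the normal group, that is at least 126-fold higher for Rgs8 and at least 87.7-fold for Epha8. For Scgb1c1 the nearest were Dcpp1 (0.57), the imprinted RNA H19 (0.66) and Dcpp3 (0.74), and for Dcpp2 they were Dcpp3 (0.71), Dcpp1 (0.95) and Scgb1c1 (0.96). For Dcpp1 they were Scgb1c1 (0.57), H19 (0.90) and the matrix protease Mmp13 (0.93). Over the 6 libraries, where normal counts of 0 to 19 weigh on the distances, Scgb1c1 was thus nearer to Dcpp1 than the Dcpp copies were to each other (0.71 to 0.97). On the CAF libraries alone this turned: Scgb1c1 and Dcpp1 differed by 0.44 and the pairs of Dcpp copies by 0.13 to 0.39. There Scgb1c1 and Dcpp2 differed by 0.05, and Napsa differed from the other 5 fitted genes by 0.53 to 0.92. For Reg3g the nearest were Lama3, a laminin chain of epithelial basement membranes (0.68), Wfdc2 (0.71) and Sox18, a vascular transcription factor (0.78). For Reg3b they were Hsd11b1, a glucocorticoid-activating enzyme (0.40), Cdon, a hedgehog co-receptor (0.43), and Flrt2, an adhesion protein (0.51). Reg3b itself had a mean of 18.7 counts, under the minimum of 20 set for the genes compared. With at most 1 count in CAF library 1 and in each normal library, its profile rests largely on depth there. Ranked on the CAF libraries alone, 0 of the 3 nearest genes stayed among the nearest 3 for any of the 7 genes.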

How the data were processed

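The submitters' processing notes list build mm10 and the tools cutadapt, HTSeq, STAR and DESeq2 with no version. Not given in the sources used here: annotation, use of strand, collapsing of molecular identifiers. The authors deposited raw counts per gene symbol, which are the values used. Per the file headers, the deposited table also holds a normalized signal, a regularized value on the log2 scale, and the authors' own log2 fold change, p-value and adjusted p-value, none of which is printed. The lowest maximum count of any gene was 6.

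The test was that of edgeR 4.0.16, run in R 4.3.3 (filterByExpr, trimmed mean of M-values, quasi-likelihood F test, Benjamini-Hochberg adjustment over 10148 genes, threshold 0.05). CPM are on scaled library totals. Standard errors are approximate (fold change over the root of F). Intervals of shares are exact binomial and those of ratios are exact counting intervals (95%); both, and the floor of 3 counts, cover counting error only. Coefficients of variation are over the 3 CAF libraries. Patterns were compared among genes with a mean of at least 20 counts. Transcripts were aligned with Biopython 1.88, and gene positions are those of GENCODE M21 (GRCm38, the assembly of mm10).

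The 7 genes and the 25 other gene lists were chosen with earlier results of these data known. Genes to be named were the 7 genes, for each list up to 4 called genes (2 of smallest p where there was none), the 3 genes nearest each of the 7 in pattern, and a fixed set of epithelial, fibroblast, sort, defence and signalling genes. Not all of these are printed. The called fibroblast activation genes are not named for that list, and the squamous, intestinal, mesothelial, immune, endothelial, glial and muscle lists are not described. The neighbouring genes, the acinar examples, Ctsd, Bace1, Reg2 and the comparison of library orders were chosen after their values were seen. On simulated counts with the means and library sizes of these 10148 genes, the fit called 0 of 50 genes set to a 2-fold change, 13 of 50 at 4-fold, 37 of 50 at 8-fold, 49 of 50 at 32-fold, and 6 unchanged genes.

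The alternatives were DESeq2 1.42.0, limma-voom (limma 3.58.1), 2 other scalings, 2 other filters, the number of mice as a covariate, each library left out in turn, and, added after seeing the data, normal libraries 1 and 2 left out together.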

Additional observations from a re-analysis of the deposited data

How the results depend on the processing

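The log2 fold changes of the 6 secretory genes that were fitted stayed above 0 under every alternative run. The count of them called ranged from 0 (without normal library 1, and without normal libraries 1 and 2) to 6 (DESeq2, and without normal library 3), against 5. Over all genes, 91 were higher and 21 lower in CAF with edgeR. DESeq2 gave 370 and 422, limma-voom 49 higher, no filter 40 lower, the filter of 10 counts in 3 libraries 12 lower and the number of mice as a covariate 8 lower. Leaving out 1 library gave 0 to 412 higher and 0 to 781 lower. The 0 without normal library 1 stood beside 429 higher and 364 lower genes at an unadjusted p under 0.05. Without normal libraries 1 and 2 together the count was 0 in both directions (751 and 520 unadjusted), with 1 normal library assumed to vary like the CAF libraries. Of the general epithelial list, 2 genes were called: 7 with DESeq2, 4 with the number of mice, 0 without normal libraries 1 and 2, and 0 to 11 with 1 library left out. Of the fibroblast identity list, 0 were called: 2 with DESeq2 and 0 to 5 with 1 library left out. The causes were not tested. No paired analysis was possible because the labels give the CAF and normal libraries no shared numbers. The median log2 fold change of all genes, 0.06 with edgeR, lay between 0.03 and 0.14 under the other tools, scalings and filters and was 0.29 without normal libraries 1 and 2. Depth limits Reg3b, which had 2 normal counts, and Dcpp1, which also had 2; in normal libraries 2 and 3 a gene with 3 counts stands at 3.80 and 3.75 CPM.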
